A study of Mus musculus with 15 samples.

Results

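Iron and heme handling was followed here through 10 liver genes: Hamp and Hamp2, Tfr2, Tfrc, Slc40a1, Trf, Hp, Hpx, Lcn2 and Cp. They are a named list of genes, matched by symbol among 21531 genes with a symbol on the array. Of these members, 6 stand in the authors' deposited table under the listed symbol and 4 under another symbol for the same gene (Hamp1, Hpxn, Trf and Trfr2). Each has 1 probe, and all 10 were among the 19362 genes tested.

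RNA came from FVB/N mice in which the tetracycline transactivator tTA is driven by the liver promoter LAP and, in the MYC mice, switches on a TRE-MYC transgene when doxycycline is withdrawn. All mice ate doxycycline chow (200 mg/kg) until they were older than 8 weeks. The 3 control livers carried LAP-tTA alone, and how long they were off doxycycline is not given in the labels. The other mice carried LAP-tTA and TRE-MYC: 4 livers without tumor at 4 to 5 weeks off doxycycline (pre-tumor), 4 tumor nodules at 8 to 9 weeks off (tumor), and 4 tumors at 8 to 9 weeks off followed by 72 hours back on doxycycline (regression). The labels number the samples but do not say that each came from a separate mouse, so p-values measure the spread between these samples.

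Iron in the body is kept in balance by hepcidin, a peptide that hepatocytes secrete and that drives the iron exporter ferroportin off the cell surface. Iron travels in plasma on transferrin and enters cells through the transferrin receptor, while hepatocytes also carry a second receptor that senses transferrin and feeds into hepcidin control. Hemoglobin and heme set free from red cells are caught by haptoglobin and hemopexin, and ceruloplasmin, lipocalin 2, haptoglobin and hepcidin are also known as liver products of the acute phase.

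Levels are log2 intensities relative to each array's 75th percentile, so a step of 1 is a 2-fold difference, and levels of different probes are not compared. Between 46.4% (tumor 3) and 90.8% (pre-tumor 4) of an array's spots were well above background, and no spot was saturated. Tumor 3, the dimmest array, also stood apart in content. The summed level of 7 hepatocyte markers was 1740 there, against 600 to 1010 on the other tumor arrays. It was 3570 to 3900 in controls, 2060 to 6480 in pre-tumor livers and 2450 to 4470 in regression. A marker without a value on an array is left out of that sum, so these ranges do not all cover the same markers. Alb gave no value on regression 2, where the sum was 2450. Fgb gave values on 3 of 4 tumor arrays, and Apoa2 on 3 of 4 arrays in pre-tumor and in regression. Alb, Apoa1 and Ahsg gave values on every tumor array and were each highest on tumor 3. Member differences in tumor are therefore also given without tumor 3. Of 3 Myc probes, 1 followed the transgene labels, with group means of -0.93 in control, 1.13 in pre-tumor, 4.23 in tumor and -0.43 in regression, while the other 2 were lower in tumor than in control. Hemoglobin and other erythroid markers, a sign of blood in the sample, summed to 48.8 to 425 in control, 64.4 to 185 in pre-tumor livers and 156 to 576 in regression. In tumor they summed to 262 on tumor 3 and to 25.4 to 38.7 on the other arrays.

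The hepcidin genes Hamp and Hamp2 are related copies that lie close to each other on chromosome 7. The bases upstream of each start site are shown because Hamp rose again in regression and Hamp2 did not pass the test. Whether Hamp and Hamp2 differed there, or whether these bases bear on their levels, was not tested. They are the 150 bases before the RefSeq start on the minus strand (GRCm38.p6, Hamp at chr7:30944030-30944179 and Hamp2 at chr7:30924182-30924331), with capitals for the BMP-responsive core GGCGCC and the STAT motif TTCNNNGAA.
Hamp: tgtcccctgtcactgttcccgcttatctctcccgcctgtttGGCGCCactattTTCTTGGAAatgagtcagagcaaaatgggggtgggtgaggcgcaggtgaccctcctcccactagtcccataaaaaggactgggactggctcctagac
Hamp2: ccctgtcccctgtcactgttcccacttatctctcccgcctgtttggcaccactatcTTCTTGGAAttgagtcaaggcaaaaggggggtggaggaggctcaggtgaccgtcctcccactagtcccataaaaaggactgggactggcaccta

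These stretches were identical at 135 of 153 aligned positions (88.2%), with 6 gap positions. The STAT motif begins at -97 in Hamp and -94 in Hamp2. GGCGCC begins at -109 in Hamp and was not found in the Hamp2 window. Over the windows from 250 bases before to 50 after a start, GGCGCC occurred in 11.9% and TTCNNNGAA in 8.3% of 32851 RefSeq windows of mouse genes. Among the 11 windows of the 7 members that have one, GGCGCC also occurred in Tfrc, TTCNNNGAA in no other member, and the MYC-type E-box CACGTG in none, against 7.15% of all windows. All 3 motifs read the same on both strands and none overlaps another here. A match is a string of letters and not a measured binding site.

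In tumors 7 of the 10 genes fell against control (Hamp, Tfr2, Trf, Hp, Hpx, Lcn2 and Cp) and 1 rose (Tfrc), by limma with Benjamini-Hochberg adjustment and an adjusted p under 0.05. Over all genes tested, 6.98% fell and 9.32% rose in the same comparison. The median difference of the members was -3.95 on the log2 scale, beside -0.18 over all genes tested. Against pre-tumor livers the same 7 fell and Tfrc rose, beside 9.08% of all genes lower and 10% higher, with a member median of -3.90. For those 7 the tumor arrays also lay wholly below the pre-tumor arrays (9.46% of all genes), and for Tfrc wholly above (11.6%). The tumor arrays lay wholly below the control arrays for 8 members, Hamp2 being the eighth, and wholly above them for Tfrc, beside 11.9% and 13.7% of all genes. These are bulk samples, so fewer cells of a type and less RNA per cell cannot be told apart. Of the 7 hepatocyte markers tested 6 fell as well, with a list median of -1.72, Alb falling by 2.34 and Apoa1 by 1.60, and their part in the falls of the members was not tested.

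**Figure D1:**
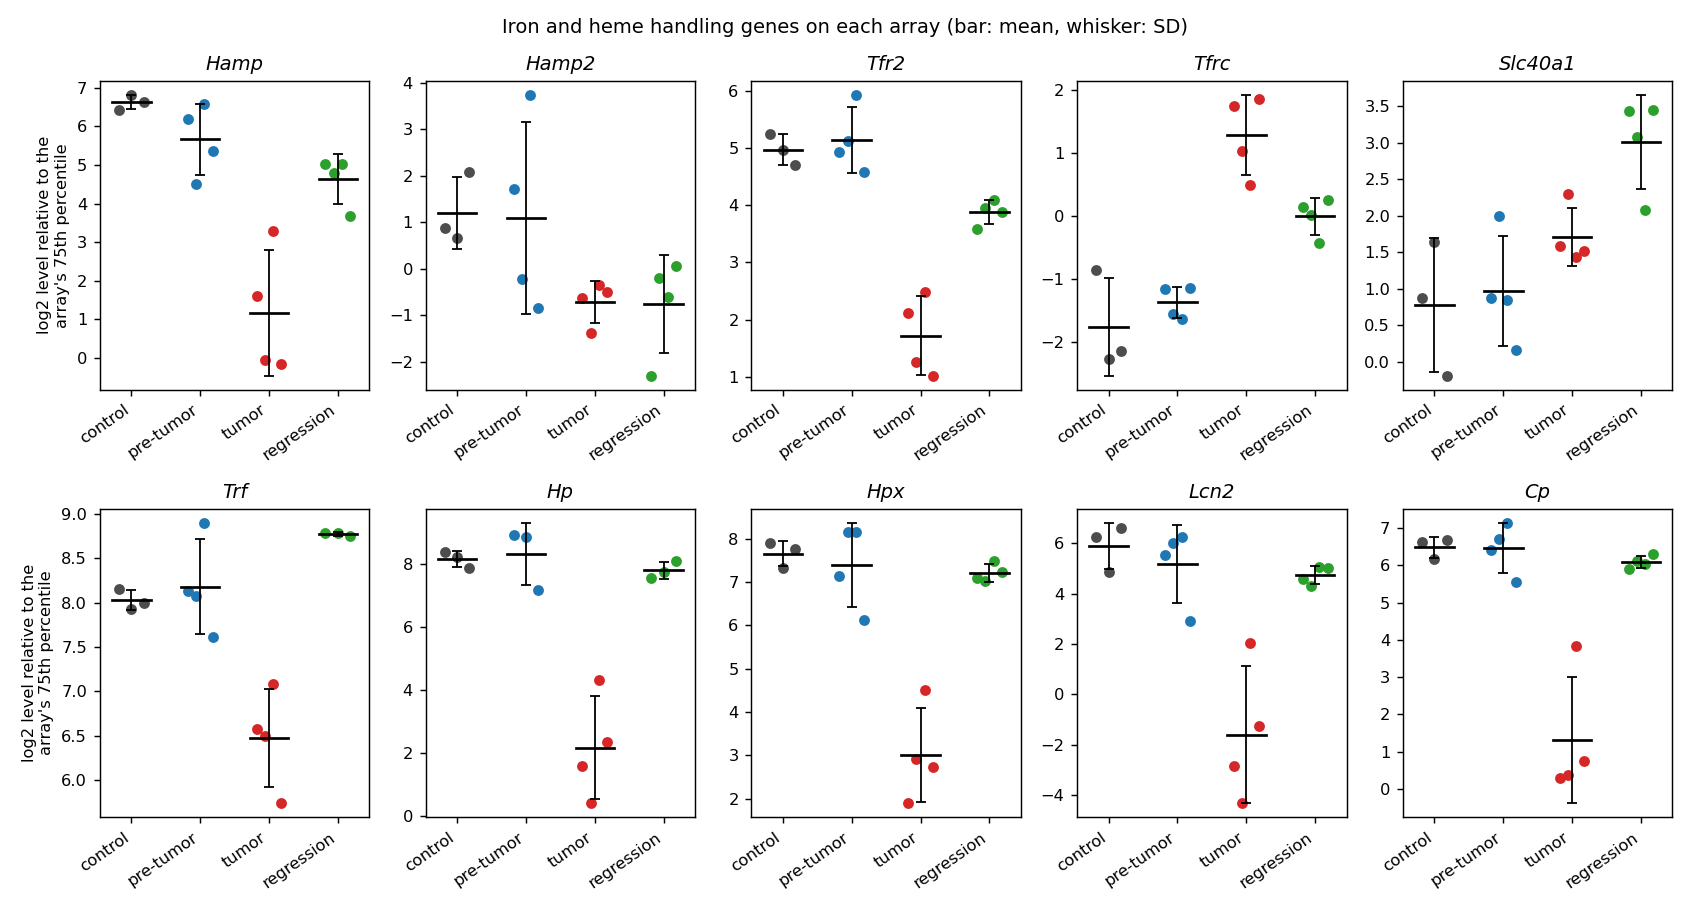
Log2 level relative to the array's 75th percentile (vertical axis) for each member on each array, by group; points are arrays, bars are group means and whiskers are 1 SD. The red tumor points lie below the control points for 8 genes and above them for Tfrc, and Hp lacks 2 arrays and Trf 1 array whose spots were outliers.

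Before tumors appeared none of the 10 genes differed from control in the limma fit, where all adjusted p-values were 1, and none reached an unadjusted p under 0.05. Over all 19362 genes the count was 0 in both directions as well, with 505 genes at an unadjusted p under 0.05, and the other normalizations, filters and fits called 0 to 11 genes. No member had groups that did not overlap, beside 1.89% of all genes higher and 0.961% lower. The intervals were wide: for Hamp the difference of -0.97 had a 95% interval from -2.48 to 0.54, for Lcn2 -0.73 with -3.09 to 1.64, and for Trf 0.15 with -0.65 to 0.94.

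In regression, 72 hours after doxycycline was returned, the 7 genes that had fallen rose against tumor and Tfrc fell, beside 8.34% of all genes higher and 8.45% lower. Regression and tumor arrays did not overlap for any of these 8, as for 10.7% of all genes on the higher side and 13.1% on the lower. The member median was 2.88, against -0.13 over all genes. The comparison shares its tumor arrays with tumor against control, so a low or high tumor mean moves both. Against control, Tfrc and Slc40a1 were higher in regression (5.02% of all genes were higher) and 0 of 10 were lower (3.33% of all genes). In the same limma comparison 3 members, Hamp, Hamp2 and Tfr2, were lower at an unadjusted p under 0.05, and 2 were higher. Of all 19362 genes tested, 4811 reached that unadjusted p, both directions together. The regression arrays of Hamp, Hamp2 and Tfr2 all lay below the control arrays, which held for 15.2% of all genes. For Tfrc, Slc40a1 and Trf they all lay above, as for 10.2% of all genes. Against pre-tumor livers, a comparison added after the data were seen, Tfrc and Slc40a1 were higher (5.02% of all genes) and Tfr2 lower (4.91%), and for these 3 the groups did not overlap (7.29% of all genes higher, 10.1% lower). The Tfrc call there was lost in 8 of 26 other settings.

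**Figure D2:**
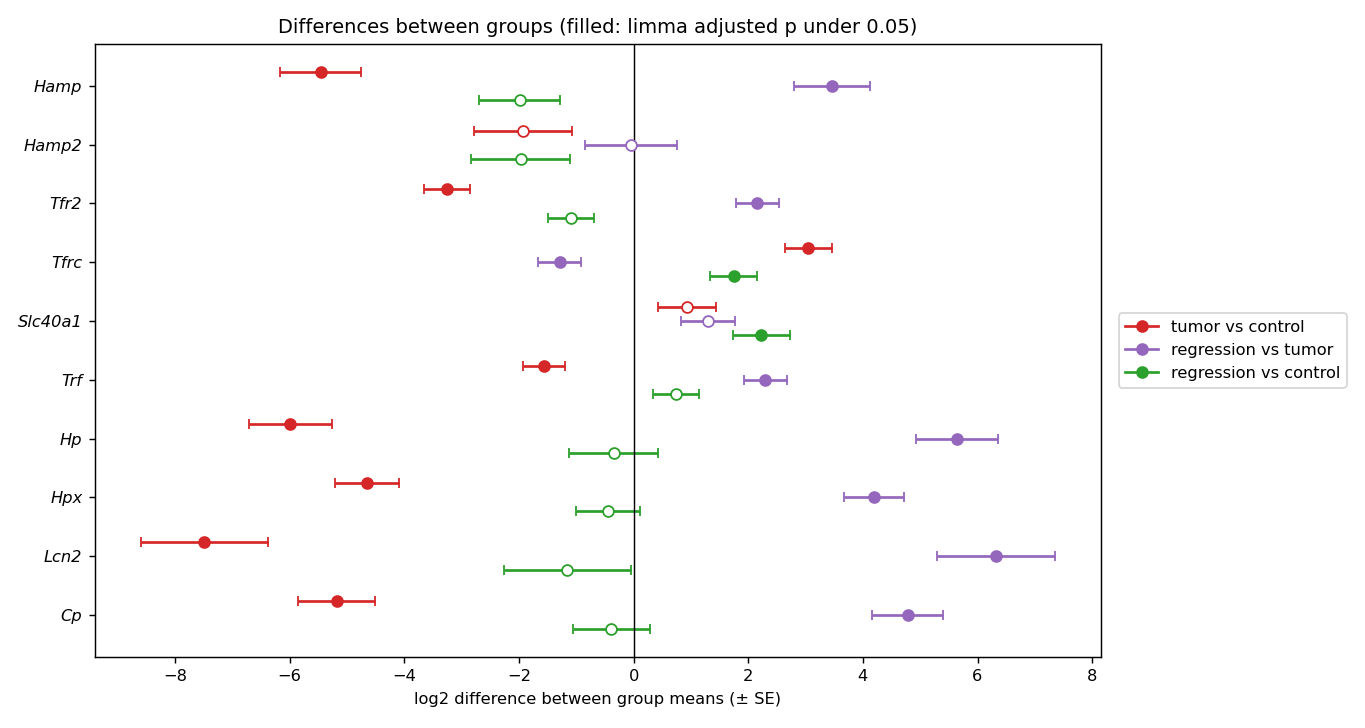
Log2 difference between group means (horizontal axis) with its standard error for each member in tumor against control (red), regression against tumor (purple) and regression against control (green); filled points passed limma's adjusted p under 0.05. The falls in tumor run from -1.56 for Trf to -7.49 for Lcn2, and only Tfrc and Slc40a1 have a filled green point.

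Hamp encodes hepcidin, the hormone that limits iron release into plasma. On the control arrays it stood at 6.44, 6.81 and 6.64, and on the pre-tumor arrays at 6.19, 4.52, 6.59 and 5.36. On the tumor arrays it stood at 1.61, -0.06, 3.29 and -0.16, and in regression at 5.04, 4.80, 5.03 and 3.68. Every tumor array lay below every other array, with tumor 3 the highest of the tumors, and every regression array lay between the tumor and the control arrays. Hamp fell by 5.46 ± 0.71 (SE) in tumor against control, a 44-fold difference (limma adjusted p = 5.33e-05), and without tumor 3 the value was -6.16. It rose by 3.46 ± 0.66 in regression against tumor (adjusted p = 0.00184), which put its regression mean 63.5% of the way from tumor to control on the log2 scale. Against control it was 1.99 ± 0.71 lower in regression, with an adjusted p of 0.0977. Without tumor 3 that difference was the same, with an SE of 0.55 and an adjusted p of 0.0349.

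Hamp2 encodes the second mouse hepcidin, for which a role in iron balance is less clear. It stood at 0.87, 0.66 and 2.09 in control and at 1.71, -0.23, 3.74 and -0.84 in pre-tumor livers. It stood at -0.62, -1.38, -0.36 and -0.50 in tumor and at -2.30, -0.20, -0.61 and 0.07 in regression. The pre-tumor arrays spread widest, on both sides of the controls, and tumor and regression arrays overlapped and all lay below the controls. The difference in tumor against control was -1.93 ± 0.86 (adjusted p = 0.153; -2.04 without tumor 3), and in regression against tumor -0.04 with a 95% interval from -1.73 to 1.65 (adjusted p = 0.987). Whether Hamp2 and Hamp differed in their return was not tested. The probes lie at chr7:30651231-30651290 (Hamp) and chr7:30631261-30631320 (Hamp2) in the build named in the scan headers, mm9. The genes are related and their probe sequences were not compared, so cross-hybridization of Hamp RNA to the Hamp2 probe was not tested.

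Tfr2 encodes the transferrin receptor by which hepatocytes sense iron-loaded transferrin. It stood at 5.24, 4.97 and 4.70 in control, at 4.93, 5.13, 5.93 and 4.58 in pre-tumor livers, at 2.11, 1.26, 2.49 and 1.02 in tumor, and at 3.59, 3.95, 4.09 and 3.89 in regression. Regression formed a tight group between the tumor arrays and the remaining arrays, overlapping with none of them. Tfr2 fell by 3.25 ± 0.40 in tumor, 9.52-fold (adjusted p = 3.38e-05; by 3.51 without tumor 3), and rose by 2.16 ± 0.37 in regression against tumor (adjusted p = 0.00095). Regression stayed 1.09 ± 0.40 below control, which did not pass (adjusted p = 0.111), and 1.26 ± 0.37 below pre-tumor, which passed (adjusted p = 0.0422) but was lost in 13 of 26 other settings, among them the slide as a block (0.0724) and leaving out any regression array (up to 0.114).

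Of 20 genes known to act in hepcidin control 19 were tested. In tumor 5 fell (Tmprss6, Il6st, Il6ra, Bmp2 and Hfe), 1 rose (Smad4) and 13 passed in neither direction, with a list median of 0.01. Over all genes tested 6.98% fell and 9.32% rose. Tmprss6, a liver protease that restrains hepcidin, had the largest fall, by 4.31 ± 0.51 (adjusted p = 2.3e-05), and rose by 3.50 ± 0.48 in regression against tumor. Hfe, which works with Tfr2, fell by 1.60 ± 0.44 and rose by 2.10 ± 0.41 in regression. The interleukin 6 receptor subunits Il6ra and Il6st fell by 1.92 and 2.24 and rose by 1.78 and 2.39. Bmp2 fell by 1.85 but was well above background on 1 of 4 tumor arrays, and Tmprss6 and Hfe were so on 3 of 4. The BMP ligand Bmp6 and its co-receptor Hjv did not pass in tumor (differences of -0.65 and 0.66, adjusted p 0.311 and 0.528). Id1, a standard target of BMP signalling, was 2.59 ± 0.70 higher in regression than in control (limma adjusted p = 0.0319). It was the single gene of the 19 called there, where 5.02% of all genes were higher and 3.33% lower. A count of 1 of 19 is near the share over all genes.

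Tfrc encodes the transferrin receptor found on dividing and iron-demanding cells, and it was the one member that rose in tumor. It stood at -0.86, -2.27 and -2.14 in control and at -1.16, -1.55, -1.63 and -1.15 in pre-tumor livers. It stood at 1.75, 1.04, 0.50 and 1.86 in tumor and at 0.14, 0.02, -0.43 and 0.25 in regression. Tumor arrays were highest, regression arrays next, and control and pre-tumor arrays overlapped at the bottom. The rise in tumor was 3.05 ± 0.41, 8.27-fold (limma adjusted p = 7.75e-05), and 3.31 without tumor 3. It was called in all 26 other settings, but its size ranged from 1.2 to 3.5 and so depended on the setting. In regression Tfrc fell by 1.29 ± 0.38 against tumor (adjusted p = 0.0282) and was still 1.75 ± 0.41, 3.37-fold, above control (adjusted p = 0.0137).

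The later Tfrc differences kept their direction, but their calls did not hold in every setting. The call in regression against tumor was lost with the slide as a block, at the same difference of -1.29 (adjusted p = 0.068), and without tumor 1, tumor 4, regression 2 or regression 3, at -1.30 to -1.10 (0.0627 to 0.0968). The call against control was lost with the slide as a block (1.68, adjusted p = 0.0631) and without control 2 or control 3 (1.5 and 1.56, adjusted p = 0.0686 and 0.0711). It was also lost with normexp and quantile normalization, where the difference was 0.52 (0.0827). That setting adds an offset of 50 to each intensity, which shrinks log2 differences of dim probes. The part of the offset in this value was not tested. Within slides Tfrc was lower in regression than in tumor on 4 of 4 slides, by -2.29 to -0.25, and higher in regression than in control on 3 of 3, by 1.11 to 2.28. Of 9 markers of erythroid cells, in which Tfrc is abundant, 1 fell in tumor against control (Alas2, by 2.36) and 0 rose. Over all genes 6.98% fell and 9.32% rose there. In regression against tumor 4 of 9 rose (Hba-a1, Hbb-b1, Alas2 and Slc4a1), beside 8.34% of all genes. The part of erythroid cells in the Tfrc levels was not tested.

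Slc40a1 encodes ferroportin, the exporter through which macrophages and hepatocytes release iron, and its mean was highest in regression. It stood at 0.87, 1.64 and -0.19 in control, at 0.87, 1.99, 0.85 and 0.16 in pre-tumor livers, at 1.58, 2.30, 1.43 and 1.52 in tumor, and at 3.43, 3.07, 2.08 and 3.45 in regression. Regression 3, at 2.08, fell within the tumor range, and every regression array lay above every control and pre-tumor array. The difference from control was 2.23 ± 0.50, 4.69-fold (adjusted p = 0.0107), and it was lost without control 3 (1.75, adjusted p = 0.0712). In tumor Slc40a1 was 0.93 ± 0.50 above control, which did not pass (adjusted p = 0.243; 1.02 without tumor 3). Regression against tumor was 1.30 ± 0.47 (adjusted p = 0.072), and it passed in 8 of 26 other settings, with adjusted p-values from 0.0165 to 0.0496.

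Markers of several other cell types were also higher in regression. All 8 markers of Kupffer cells and macrophages were tested. Their summed level was 20.2 to 38.4 in control, 20.0 to 50.5 in pre-tumor livers, 36.2 to 42.1 in tumor and 128 to 239 in regression. A sum weighs the brightest probes most, and Cd5l (mean 6.58) and Cd68 (4.59) had the highest regression means of the 8. In regression against control 5 of 8 rose (Cd5l, Cd68, Timd4, Csf1r and Adgre1, by 4.41, 4.61, 3.36, 2.53 and 2.20) and 1 fell (Marco, by 2.99). Over all genes tested 5.02% were higher and 3.33% lower. Clec4f, a marker of resident Kupffer cells, differed by -1.0 (limma adjusted p = 0.422). Every marker was well above background on at least 1 array of each group. Regression 3, the lowest regression array for Slc40a1, had a macrophage sum of 158, within the range of the other regression arrays. By the mean log2 level of the same markers it was the highest regression array, at 3.10. Regression 4, the highest array for Slc40a1, had a sum of 130 and the lowest mean of the regression arrays, 1.93. Endothelial markers summed to 6.36 to 12.5 in regression against 2.26 to 6.21 in the other groups, with 3 of 6 higher than in control and 0 lower. Stellate cell and fibroblast markers summed to 15.6 to 61.9 against 3.92 to 15.5, with 2 of 5 higher and 0 lower. The same shares over all genes apply to both lists. The part of any of these cells in the Slc40a1 result was not tested.

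**Figure D3:**
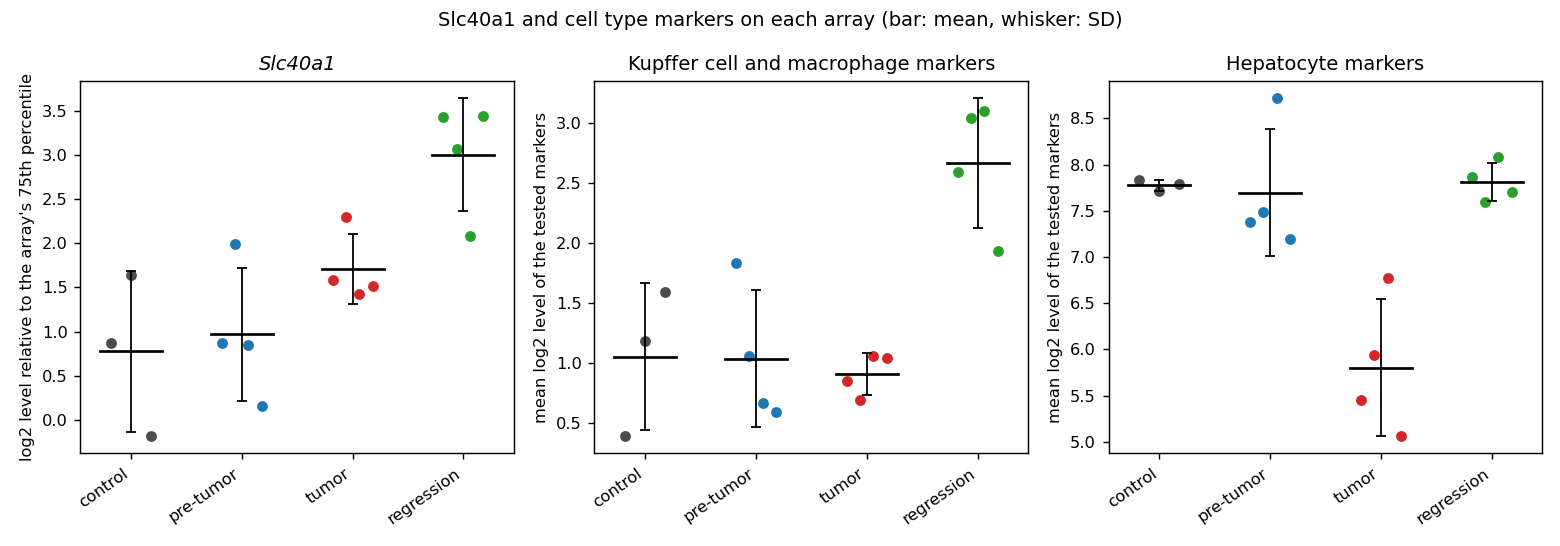
Slc40a1 level on each array (left), and the mean log2 level of the tested markers of Kupffer cells and macrophages (centre) and of hepatocytes (right), by group; bars are group means and whiskers 1 SD. The 4 regression arrays are highest for Slc40a1 on average and lie above all other arrays for the macrophage markers, while hepatocyte markers are lowest in tumor. Each marker mean is over the markers with a value on that array, and Alb had none on regression 2.

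Trf encodes transferrin, the plasma iron carrier made by hepatocytes. It stood at 8.15, 7.93 and 8.00 in control, at 8.13, 8.07, 8.90 and 7.61 in pre-tumor livers, at 6.58, 6.50, 7.08 and 5.74 in tumor, and at 8.79, 8.78 and 8.75 on the 3 regression arrays that gave a value. All tumor arrays lay below all others, and the regression arrays lay above all controls and below pre-tumor 3. Trf had the smallest fall of the 7, 1.56 ± 0.37 or 2.94-fold (adjusted p = 0.009; 1.76 without tumor 3), and the call was lost under median centring (-1.24, adjusted p = 0.13). It rose by 2.30 ± 0.37 in regression against tumor (adjusted p = 7e-04). Regression was 0.74 ± 0.40 above control (adjusted p = 0.261), and this passed when limma was run on normexp values or on the values of the authors' deposited table (adjusted p = 0.000712 and 0.000571). Against pre-tumor livers, where the difference was 0.60 ± 0.37 (adjusted p = 0.352), the same 2 sources gave 0.0209 and 0.0251.

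Hp encodes haptoglobin, which binds free hemoglobin, and its spot was an outlier on pre-tumor 1 and regression 2, which the fit leaves out. It stood at 8.38, 8.24 and 7.88 in control, at 8.92, 8.88 and 7.18 in pre-tumor livers, at 1.61, 0.41, 4.31 and 2.35 in tumor, and at 7.58, 7.75 and 8.10 in regression. The gap between the highest tumor array and the lowest of the rest was wide. Hp fell by 5.99 ± 0.72, 63.7-fold (adjusted p = 5.03e-05), and by 6.71 without tumor 3. It rose by 5.64 ± 0.72 in regression (adjusted p = 0.000164), and the remaining difference from control of -0.35 had a 95% interval from -2.0 to 1.29.

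Hpx encodes hemopexin, the plasma scavenger of heme. It stood at 7.89, 7.32 and 7.75 in control, at 7.14, 8.14, 8.16 and 6.11 in pre-tumor livers, at 1.89, 2.91, 4.50 and 2.73 in tumor, and at 7.09, 7.02, 7.47 and 7.23 in regression. Tumor arrays lay apart below, and the other 3 groups overlapped. The fall in tumor was 4.65 ± 0.56, 25.1-fold (adjusted p = 2.55e-05; 5.15 without tumor 3), and the rise in regression 4.19 ± 0.52, 18.3-fold (adjusted p = 8.2e-05). Regression differed from control by -0.45, with an interval from -1.65 to 0.74.

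Lcn2 encodes lipocalin 2, which withholds iron by binding bacterial siderophores and is made by hepatocytes and neutrophils. It stood at 6.24, 4.85 and 6.58 in control, at 5.51, 6.01, 6.23 and 2.90 in pre-tumor livers, at -2.85, -4.30, 2.03 and -1.26 in tumor, and at 4.57, 4.29, 5.05 and 5.00 in regression. On tumor 1 and tumor 2 it was not well above background, so 2 of 4 tumor arrays measured it. The fall was 7.49 ± 1.11 in the fit (adjusted p = 0.000192) and 8.70 without tumor 3, where 1 of 3 tumor arrays measured it. Both sizes rest on values at background. The rise in regression was 6.32 ± 1.03 (adjusted p = 0.000621), and regression differed from control by -1.16, with an interval from -3.53 to 1.20. Neutrophil markers summed to 5.40 to 14.6 in control, 2.70 to 19.6 in pre-tumor livers, 1.41 to 4.26 in tumor and 4.85 to 6.82 in regression. S100a9 gave values on 3 of 4 tumor arrays, and the sum lacks it where it gave none. Of the 9 markers tested 0 passed in tumor against control or in regression against tumor. In tumor against pre-tumor 3 of 9 fell, S100a9 by 3.23, Retnlg by 3.67 and S100a8 (adjusted p = 0.0197, 0.0159 and 0.0398), beside 9.08% of all genes, where Lcn2 and Hp also fell. S100a8 was not well above background on any tumor array, and the part of neutrophils in the Lcn2 and Hp results was not tested.

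Cp encodes ceruloplasmin, the copper ferroxidase that loads iron onto transferrin. It stood at 6.62, 6.16 and 6.68 in control, at 6.40, 6.71, 7.14 and 5.56 in pre-tumor livers, at 0.29, 0.36, 3.83 and 0.75 in tumor, and at 5.91, 6.12, 6.03 and 6.30 in regression. Tumors 1, 2 and 4 lay close together and tumor 3 lay far above them, yet below every array of the other groups. Cp fell by 5.18 ± 0.67, 36.1-fold (adjusted p = 4.89e-05), and without tumor 3 by 6.02 ± 0.38 (adjusted p = 2.41e-07). It rose by 4.78 ± 0.62 in regression (adjusted p = 0.000107), where its mean was 0.39 below control with an interval from -1.81 to 1.02.

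Among the tumor arrays, tumor 3 was the highest for 8 of 10 members, namely Hamp, Hamp2, Tfr2, Trf, Hp, Hpx, Lcn2 and Cp. For Tfrc it was the lowest tumor array, at 0.50 against 1.04 to 1.86, and for Slc40a1 it was also the lowest, at 1.43 against 1.52 to 2.30. Even there, Hp at 4.31 and Hpx at 4.50 lay below the lowest control values of 7.88 and 7.32. Without tumor 3 the same counts of members were called in tumor against control, tumor against pre-tumor and regression against tumor, and Hamp was added in regression against control. The rises in regression against tumor were then 4.17 for Hamp, 2.42 for Tfr2, 2.50 for Trf, 6.36 for Hp, 4.69 for Hpx, 7.53 for Lcn2 and 5.62 for Cp. Tfrc differed by -1.56, Slc40a1 by 1.21 (adjusted p = 0.146) and Hamp2 by 0.08 (adjusted p = 0.984). Tumor 3 had the fewest spots above background and the highest hepatocyte and erythroid marker sums of the tumors, and the part of any of these in its member levels was not tested.

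**Figure D4:**
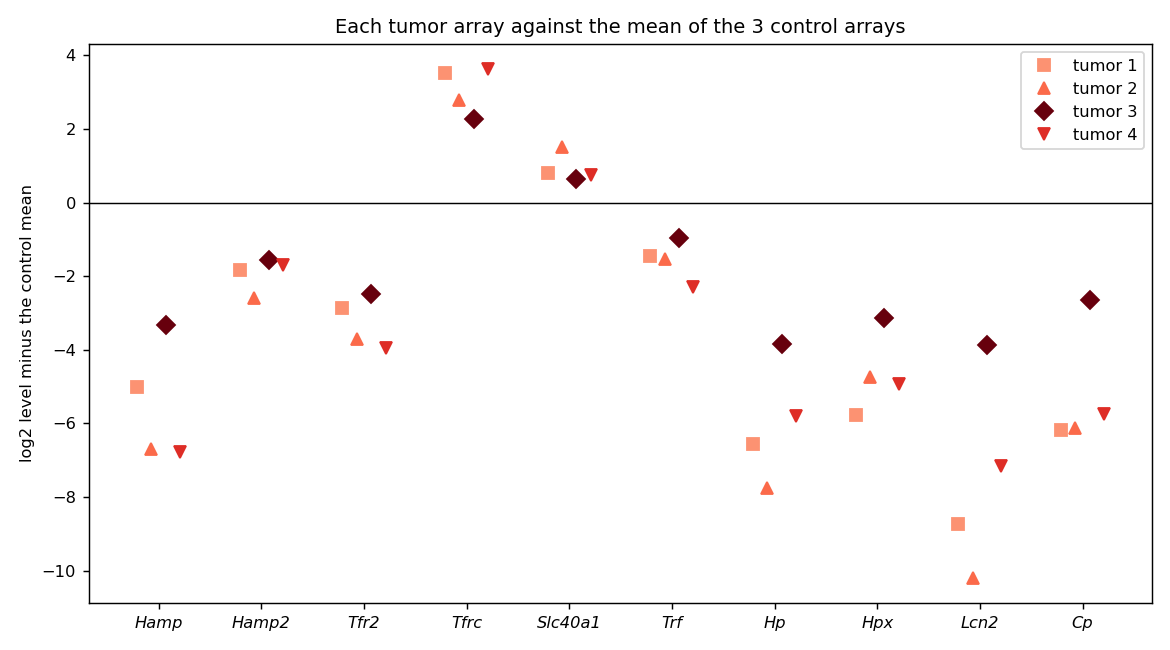
Log2 level of each member on each of the 4 tumor arrays minus the mean of the 3 control arrays (vertical axis); each symbol is 1 array and tumor 3 is the dark diamond. The diamond is the highest symbol for 8 genes and the lowest for Tfrc and Slc40a1.

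Within slides the main differences kept their direction. Each of the 4 slides held at most 1 array of each group, and 3 held a control. Against the control of the same slide the tumor array was lower on 3 of 3 slides for Hamp (-6.97 to -3.16), Tfr2 (-3.95 to -2.75), Trf (-2.19 to -1.07), Hp (-7.47 to -4.06), Hpx (-4.85 to -3.39), Lcn2 (-10.88 to -4.21) and Cp (-6.31 to -2.79). Tfrc was higher on 3 of 3 (1.36 to 4.13). Slc40a1 in regression was above the control of its slide on 3 of 3 (0.44 to 3.62). For Hamp, regression lay above tumor on 4 of 4 slides, by 0.39 to 5.19, the smallest step being on the slide of tumor 3.

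After 72 hours back on doxycycline the members stood at different points between tumor and control. On the log2 scale Hp (94.1%), Cp (92.4%), Hpx (90.2%) and Lcn2 (84.5%) had covered most of the way from the tumor mean to the control mean. Tfr2 (66.4%), Hamp (63.5%) and Tfrc (42.4%) had covered less. The regression mean of Trf lay past control (148%), that of Hamp2 beside tumor (-2.15%), and that of Slc40a1 farther from control than tumor. The limma differences behind these 3 did not pass: Trf in regression against control (adjusted p = 0.261), Hamp2 in tumor against control (0.153), and Slc40a1 in tumor against control (0.243) and regression against tumor (0.072). For Lcn2 the tumor mean includes values at background. All these shares are of group means, and differences among them were not tested. In the order of group means, tumor was lowest and stood apart from its neighbour for Hamp, Tfr2, Trf, Hp, Hpx, Lcn2 and Cp, and no step between neighbours among the other 3 groups passed for any of these 7 genes. For Tfrc the steps from pre-tumor to regression and from regression to tumor both passed.

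Of 15 genes of cell iron uptake, storage and sensing tested, 2 fell in tumor (Steap4 and Slc39a14) and 1 rose (Pcbp2), with a list median of -0.30. As for the lists that follow, the shares over all genes tested were 6.98% lower and 9.32% higher. Steap4, a metalloreductase of inflamed liver and fat, fell by 7.72 ± 0.81 (adjusted p = 7.15e-06), rose by 4.23 ± 0.75 in regression against tumor, and was still 3.50 ± 0.81 below control. Slc39a14, a carrier that brings non-transferrin iron into hepatocytes, fell by 2.98 ± 0.55. Of the ferritin subunits, Fth1 rose by 1.33 ± 0.38 in regression against tumor (adjusted p = 0.0248), and Ftl1 did not pass (0.58, adjusted p = 0.673). In the same comparison Steap4, Fth1 and Slc39a8 rose and Pcbp1 fell, beside 8.34% of all genes higher and 8.45% lower.

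Of 12 heme synthesis genes tested, 1 fell and 1 rose in tumor, which is near those shares. Alas1, which sets the pace of heme synthesis in liver, fell by 4.04 ± 0.49 (adjusted p = 2.69e-05). Its levels were 3.63 to 5.08 in control, 2.52 to 4.31 in pre-tumor livers, 0.37 to 0.53 in tumor and 0.50 to 2.04 in regression, so regression lay below every pre-tumor array. Alas1 was still 3.13 ± 0.49 below control in regression (adjusted p = 0.000659), where Hp, Hpx and Cp did not pass. Abcb10, a mitochondrial transporter, rose by 1.69 in tumor and fell by 1.66 in regression. It was well above background on 1 of 3 control arrays, so the size of its rise rests in part on values near background.

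Of 10 genes of heme uptake, breakdown and export, 4 fell in tumor (Ugt1a1, Blvrb, Lrp1 and Abcg2) and 1 rose (Blvra). Lrp1, the receptor that takes up the heme and hemopexin complex, fell by 1.60 ± 0.42 and rose by 1.84 ± 0.39 in regression. Ugt1a1, which conjugates bilirubin, fell by 4.83 ± 0.46. It rose by 2.23 in regression against tumor and stayed 2.61 below control. Hmox1, the heme-degrading enzyme, differed by -0.65 ± 0.55 in tumor, which did not pass (adjusted p = 0.482). Of 13 mitochondrial iron and iron-sulfur genes 1 rose in tumor (Lyrm4, by 1.26). In regression against tumor 3 of 13 fell (Nfs1, Lyrm4 and Slc25a28) and 0 rose, beside 8.45% of all genes lower and 8.34% higher. Nfs1, the cysteine desulfurase, fell there by 2.15 ± 0.31 (limma adjusted p = 0.000265).

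**Figure D5:**
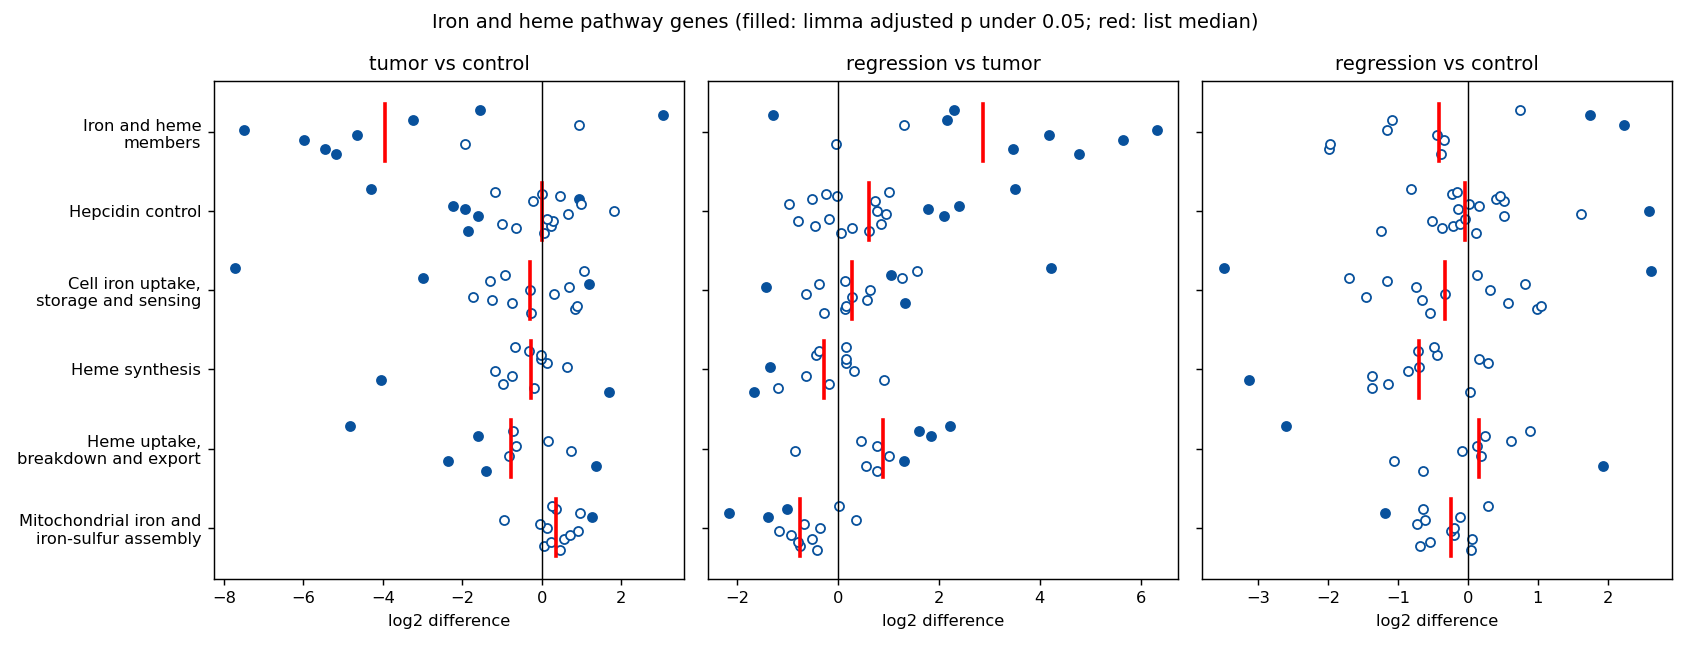
Log2 difference (horizontal axis) of each tested gene in the 10 members and 5 related lists, for tumor against control, regression against tumor and regression against control; filled points passed limma's adjusted p under 0.05 and red bars are list medians. The member median is -3.95 in tumor against control, and the medians of the other lists lie between -0.77 and 0.36.

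The genes whose pattern lay nearest to each member, by the root mean square of the log2 difference over arrays after centring each gene, came in part from the members themselves. Nearest to Cp was Hpx (0.50), followed by Hrg (0.62) and Qsox1 (0.63), and nearest to Hpx was Cp, followed by Qsox1 (0.52). Nearest to Hp, over 13 arrays, was Cp (0.58), and for Lcn2 the distances were wider, with Rdh7 at 1.06 and Cp at 1.14. Lrg1 and Rdh7 were also near Hp, Clu near Hpx, and Cyp2a12 near Lcn2. Hamp was nearest to EG667984 (0.59), Otc (0.66), a urea cycle enzyme, and Egfr (0.71). Hamp2 was nearest to Shb (0.71), Ctf1 (0.81) and Bcl3 (0.82). Tfr2 was nearest to Ces2a (0.31), Upb1 (0.33) and Mtarc1 (0.34). Trf, over 14 arrays, was nearest to the plasma protein genes Apoa1 (0.24) and Ahsg (0.28) and to Ctsh (0.28). Tfrc was nearest to Ctps2 (0.41), a CTP synthase, Gga2 (0.42) and Tgif2 (0.42). Slc40a1 was nearest to Cavin1 (0.43), Ggta1 (0.45) and Stk10 (0.46). These distances are descriptions over the same 15 arrays or fewer, among 18512 genes with a value on every array for members measured on all of them.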

How the data were processed

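Per the labels' protocols, RNA was extracted with a mirVana kit, amplified by whole transcriptome amplification, labelled with Cy3 and run on 4x44K mouse arrays from Agilent. Feature Extraction 10.5.1.1 gave the processed signal, a linear intensity with background subtracted, per the file headers. The authors also deposited a normalized table of log2 values, whose normalization is not given in the sources used here, and probe names and positions were taken from it. Here log2 processed signal minus each array's 75th percentile was used. Outlier spots (0.452% of values) were left out. Of 41174 probes, 34908 had a symbol, and 29926 were kept as well above background on at least 3 of 15 arrays. A gene is its kept probe with the highest mean, with symbols updated from RefSeq. limma 3.58.1 in R 4.3.3 fitted 4 groups (11 residual degrees of freedom), two-sided, and p-values were adjusted by Benjamini-Hochberg over the whole table. The fit was tested on simulated data. Array number limits precision. All members, and the 3 genes nearest to each, were named. The members and lists were chosen with earlier results of these data known. Alternatives were normalization, filter, block, samples fitted, variance and leaving out arrays. Mean spot signal was not used here, so the normexp alternative used the median, with an offset of 50 added. Replicate numbers are not stated to pair samples, and the main fit did not pair them. The deviations of same-numbered arrays correlated at -0.46 to 0.61 in 21 pairs (median 0.13), with 11 over 0.1. Arrays on the same slide correlated at -0.54 to 0.2 in 21 pairs (median -0.17), with 2 over 0.1. These values do not settle whether the numbers pair samples.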

Additional observations from a re-analysis of the deposited data

Results flagged for a closer look

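Of 27 groups of 4 arrays examined across the members, 1 held an array far from the rest, where chance alone would give about 1 in 20. Cp on tumor 3 was 3.83, while the next tumor array was 0.75 and the lowest 0.29, a gap of 0.871 of the whole range, above Dixon's 95% critical value.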

How the results depend on the processing

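The counts in tumor against control and tumor against pre-tumor kept their direction in all 26 other settings: 6 to 8 members lower in the first (7 to 7 when an array was left out; Trf lost under median centring, Hamp2 gained with only the 2 groups fitted), 7 to 8 in the second, and 1 higher in each. No called member changed sign. In regression against tumor 7 to 8 members were higher, Slc40a1 being the eighth, and the single lower member, Tfrc, was lost with the slide as a block (0) and ranged from 0 to 1 when an array was left out. In regression against control the higher count was 1 with the slide as a block and 0 to 2 when an array was left out, reaching 0 without control 3. It was 3 in the authors' deposited table, where Trf was added, and 2 with normexp and quantile normalization, where Trf took the place of Tfrc. The lower count was 2 with normexp and quantile normalization (Hamp, Tfr2), 1 in the authors' deposited table (Tfr2), 1 with only the 2 groups fitted (Hamp), and 0 to 1 when an array was left out. In regression against pre-tumor the higher count changed in the same way in those 2 settings (3 and 2), was 1 with the slide as a block and was 1 to 2 when an array was left out, and the lower count was 0 with median centring, with the slide as a block and with only the 2 groups fitted, and 0 to 1 when an array was left out. The replicate number as a block gave 8 members higher in regression against tumor and left the member counts of the other comparisons as they were, while the number of all genes called in regression against control went from 1616 to 3544. With the slide as a block that number was 989, and it was 1027 to 1833 when an array was left out. Median centring shifted the median of all genes by 0.32 in tumor against control and 0.31 in regression against control, and raised the share of higher genes among all called from 57.2% to 68.6% and from 60.1% to 72.0%. In tumor against pre-tumor the shift was 0.26 and the share went from 52.5% to 62.8%, and in regression against pre-tumor 0.25 and from 50.5% to 64.0%. The causes of these changes were not tested. Lcn2 in tumor is limited by signal, with 2 of 4 arrays well above background.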
